A study of Mus musculus with 6 samples.

Results

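Integrins and laminins are the receptors and ligands that fasten epidermis to dermis, muscle fibres to their sheath and leukocytes to vessel walls. They were described here from RNA-seq of total skin, with 3 JunBΔep and 3 control animals. The members are the rows of the deposited gene table whose symbol is that of an integrin alpha or beta gene or a laminin alpha, beta or gamma gene, without the integrin-binding proteins Itgb1bp1, Itgb1bp2 and Itgb3bp. The choice used symbols only. It gave 39 of the 23951 genes, with 18 integrin alpha rows, 9 integrin beta rows, Itgbl1, 5 laminin alpha rows, 3 laminin beta rows and 3 laminin gamma rows. All 39 averaged 0.1 FPKM or more across the 6 mice (fragments per kilobase of transcript, scaled to the mapped fragments of the library, the unit of the deposited values) and were tested. Itgbl1 encodes a secreted protein that resembles part of a beta subunit and is not itself a subunit.

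The mice labelled JunB dep lack JunB, a subunit of the transcription factor AP-1, in cells that express keratin 5, which are the basal keratinocytes of the epidermis and hair follicle. The deletion is limited to these cells, so fibroblasts, muscle, vessels and leukocytes of the same skin keep the gene. Controls are labelled JunB +/+. According to the labels, all were C57Bl/6 mice of 6 to 7 months and littermates, and the study took lesional skin from the JunBΔep mice. Both sexes were used, and the sex of each mouse is not given in the labels. Libraries are named by genotype and the replicate number 0, 1 or 2 of the labels, and every series of 3 values below follows that order.

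An integrin is a pair of 1 alpha and 1 beta subunit in the plasma membrane. The pair decides the ligand. Alpha subunits of the collagen group, the laminin group and the group that reads the tripeptide RGD in fibronectin and vitronectin pair mostly with Itgb1, although Itgav also takes Itgb3, Itgb5, Itgb6 or Itgb8, whereas leukocyte alpha subunits pair with Itgb2 or Itgb7. Itga6 with Itgb4 forms the core of the hemidesmosome, the rivet that ties the keratin filaments of basal keratinocytes to the basement membrane. Laminins are trimers of an alpha, a beta and a gamma chain. Lama3 and Lamb3 are chains of laminin-332, the main laminin under the epidermis and the ligand of the hemidesmosome, while Lama2 and Lama4 belong to the basement membranes of muscle, nerve and vessels.

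Several features of the libraries bear on the values below. The FPKM values sum to between 481078 and 630363 per mouse, and read depth is unknown, which leaves no counting error to quote. Junb itself was at 59.3, 72.4 and 56.9 FPKM in the controls and at 130, 42.8 and 28.0 FPKM in the 3 labelled JunBΔep. Cells other than basal keratinocytes keep the gene, so its level in whole skin cannot decide whether a label is right. Junb was above every control in the library labelled JunBΔep replicate 0. That library also held genes of mucosal epithelium (a summed 3798 FPKM over Krt4, Krt13, Krt76, Sprr3 and Pax9, at most 1.41 FPKM in any other mouse) and listed Krt14 at 0 beside Krt5 at 3725 FPKM. Skeletal muscle transcripts separated the groups. The summed level of 10 muscle markers was 18404 to 25443 FPKM in control mice against 1777 to 4336 FPKM in JunBΔep mice, with 7 of 10 called lower. In whole tissue, fewer cells of a type and less RNA per cell cannot be told apart. Defining markers of epidermis and dermis were present, with Krt5 between 1588 and 3725 FPKM and Col1a1 between 73.9 and 505 FPKM. Where leaving out JunBΔep replicate 0 turned the sign of a named estimate or moved it by over 1.5 times, both estimates are given.

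No member passed the test. Limma on log2(FPKM + 0.5), with an intensity trend and Benjamini-Hochberg adjustment over the 17021 tested genes, called 0 of 39 at an adjusted p of 0.05, and the lowest adjusted p of a member was 0.506. Over all tested genes 1.38% were called, all of them lower. At an unadjusted p below 0.05 there were 4 members (10.3%), against 7.56% of all tested genes (1.43% higher and 6.13% lower), with Itga3 and Lamb1 higher and Lamb2 and Itgbl1 lower. Leaving out control replicate 0 gave a count of 0, leaving out control replicate 1 or 2 gave a count of 2, and leaving out JunBΔep replicate 1 gave 1. A block on the replicate number gave 2 and a block on the title numbers 3. The 2 groups did not overlap in 5 members (12.8%), 2 of them higher and 3 lower in JunBΔep skin, against 14.8% of all tested genes (5.62% higher and 9.16% lower). These shares lie close to the background. The median log2 fold change was 0.08 over the members and 0.03 over all tested genes, with 21 members positive (53.8%, against 53.4% of all tested genes) and 18 negative. Standard errors of the members ran from 0.17 to 1.01 with a median of 0.32 on the log2 scale, so differences of the size seen in most members were not detectable with 3 mice a group.

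**Figure D1:**
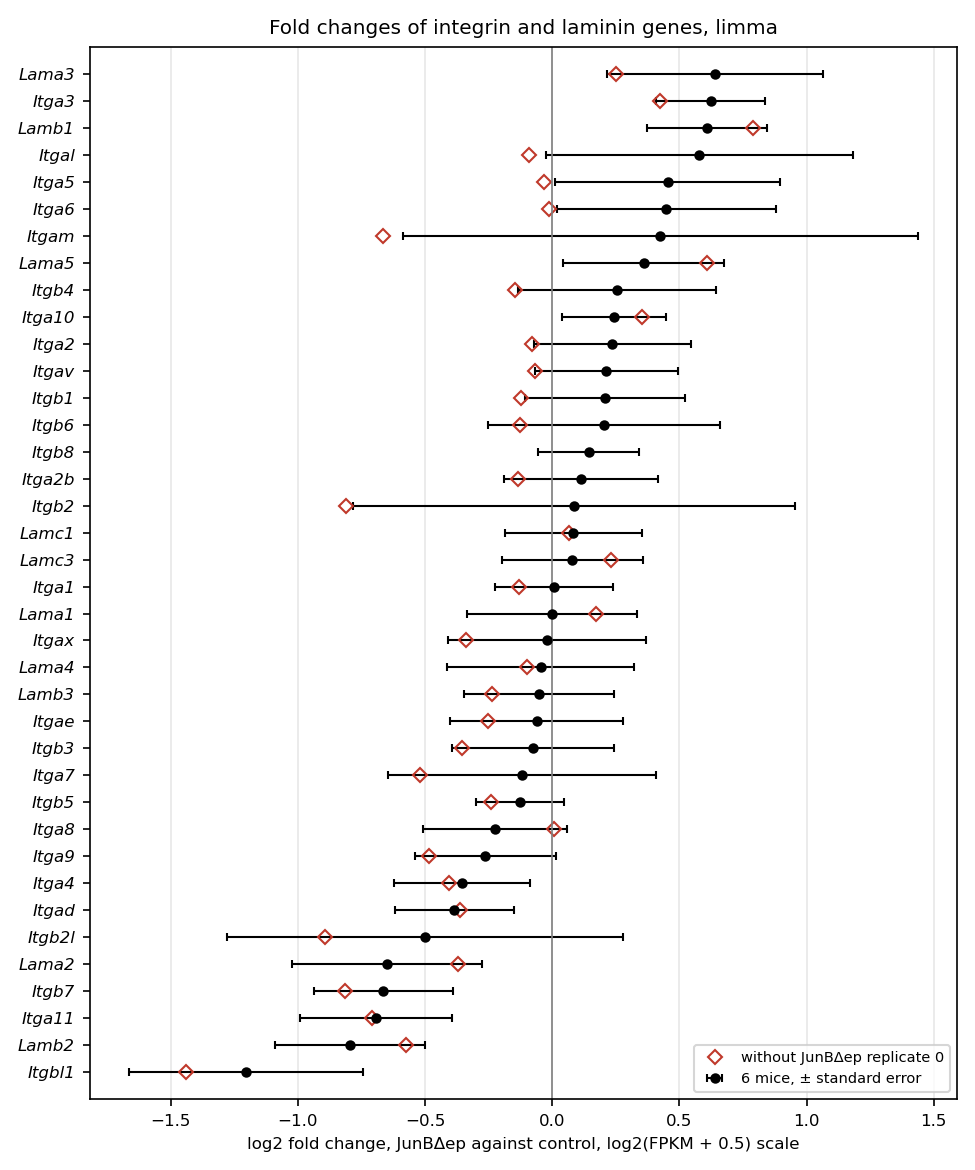
Log2 fold change of 38 of the 39 genes (horizontal axis, JunBΔep against control on the log2(FPKM + 0.5) scale). Black points with bars are the limma estimates from 6 mice with their standard errors, and open diamonds are the estimates without JunBΔep replicate 0. Lama3 has the highest estimate shown (0.64) and Itgbl1 the lowest (-1.20), and the leukocyte genes Itgam and Itgb2 have the widest bars and move to the negative side when JunBΔep replicate 0 is left out.

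The spread within the groups was unequal. In controls, the highest value was less than 1.5 times the lowest in 21 members, and in JunBΔep mice in 3. The ratio reached 2 or more in 9 members in controls and in 26 in JunBΔep mice. JunBΔep replicate 0 held the highest value of the 6 mice in 20 of the 39 members (51.3%, against 29.7% of all tested genes), and JunBΔep replicate 1 the lowest in 20 (51.3%, against 17.6%). JunBΔep replicate 0 was the lowest in 5 (12.8%, against 32% of all tested genes), control replicate 1 in 8 (20.5%, against 20.3%) and JunBΔep replicate 2 in 3 (7.69%, against 7.9%). Control replicate 2 was neither the highest nor the lowest in any member, although it held 8.21% of the highest and 8.92% of the lowest values over all tested genes. Without JunBΔep replicate 0, the estimate turned its sign in 14 of the 38 members that still passed the filter, and 28 of the 38 were negative. The members' median was then -0.13 while that of all tested genes stayed at 0.03. Again 0 members were called (0.798% of all tested genes) and 4 had an unadjusted p below 0.05 (8.07% of all tested genes), namely Itga3, Lamb1, Itgb7 and Itgbl1. The groups did not overlap in 12 members (31.6%, against 24.1% of all tested genes).

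The laminin receptors were the alpha subunits with the highest levels. Itga3, which with Itgb1 binds laminin-332 and stabilises basal cell adhesion (mm9 chr11:94905788-94938115, minus strand), was at 16.0, 18.4 and 19.02 FPKM in control mice against 36.6, 23.5 and 24.5 FPKM in JunBΔep mice. All 3 JunBΔep mice lay above all controls. The means were 17.8 ± 1.61 FPKM (SD, n = 3) and 28.2 ± 7.31 FPKM (SD, n = 3), a log2 fold change of 0.62 with a standard error of 0.22 (adjusted p = 0.506 from limma, unadjusted p = 0.0267). The difference kept its direction without JunBΔep replicate 0, at 0.42. The ratio of Itga3 to its partner Itgb1 within a library was 0.310, 0.361 and 0.378 in controls and 0.391, 0.593 and 0.443 in JunBΔep mice. These ranges were apart by a narrow margin. The ratio reuses the Itga3 values and was not tested, so it is no independent support.

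Itga6, the hemidesmosome alpha subunit (chr2:71583673-71696473), was at 27.3, 27.6 and 22.4 FPKM in control mice against 67.0, 20.04 and 32.2 FPKM in JunBΔep mice. Itgb4, its partner with the long cytoplasmic tail that binds plectin (chr11:115836023-115869726), followed it at 44.8, 36.0 and 32.5 FPKM and 78.3, 27.2 and 41.9 FPKM. In both genes JunBΔep replicate 0 stood above every other mouse, replicate 1 was the lowest of the 6, and replicate 2 lay above the controls in Itga6 and among them in Itgb4. The log2 fold changes were 0.45 (standard error 0.43) and 0.26 (standard error 0.39), with adjusted p-values of 0.736 and 0.823 from limma, and without JunBΔep replicate 0 they were -0.01 and -0.14. The ratio of Itga6 to Itgb4 stayed between 0.610 and 0.856 in all 6 libraries, while the JunBΔep mice spanned 3.34-fold in Itga6 and 2.87-fold in Itgb4. Itgb4 relative to Itgb1 did not separate the groups. Its log2 ratio was -0.20, -0.51 and -0.63 in controls and -0.26, -0.54 and -0.40 in JunBΔep mice, a difference of 0.05, or -0.02 without JunBΔep replicate 0 (exact two-sided permutation p = 0.8 with all 6 mice, where 3 mice against 3 cannot give a p below 0.1).

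Itga7 is the laminin receptor of skeletal and smooth muscle. It was at 19.4, 19.3 and 12.3 FPKM in control mice against 27.0, 6.57 and 19.7 FPKM in JunBΔep mice (chr10:128370869-128395333, log2 fold change -0.12 with a standard error of 0.53, limma adjusted p = 0.943, and -0.52 without JunBΔep replicate 0). The groups overlapped fully, with the highest and the lowest of the 6 values both in JunBΔep mice. The skeletal muscle markers of the same libraries did separate the groups, as given above. Itgb1bp2, or melusin, a muscle protein that binds the tail of Itgb1 and is not a member, was named after its values were seen. It was at 57.1, 81.9 and 56.6 FPKM in control mice against 5.81, 5.44 and 10.7 FPKM in JunBΔep mice and had a log2 fold change of -3.11 (limma, adjusted p = 0.0187). Of 10 genes listed for the other laminin receptors, the dystroglycan and sarcoglycan complex of muscle among them, 2 were called, both lower, among them Sgca (log2 fold change -2.88, adjusted p = 0.0179 from limma). These calls, and those of the muscle markers, were lost with a block on either numbering and without any 1 of the controls or JunBΔep replicate 1, where 0 genes of the whole table were called. The list's median was -0.54, or -0.34 without JunBΔep replicate 0, against 0.03 over all tested genes in both cases.

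**Figure D2:**
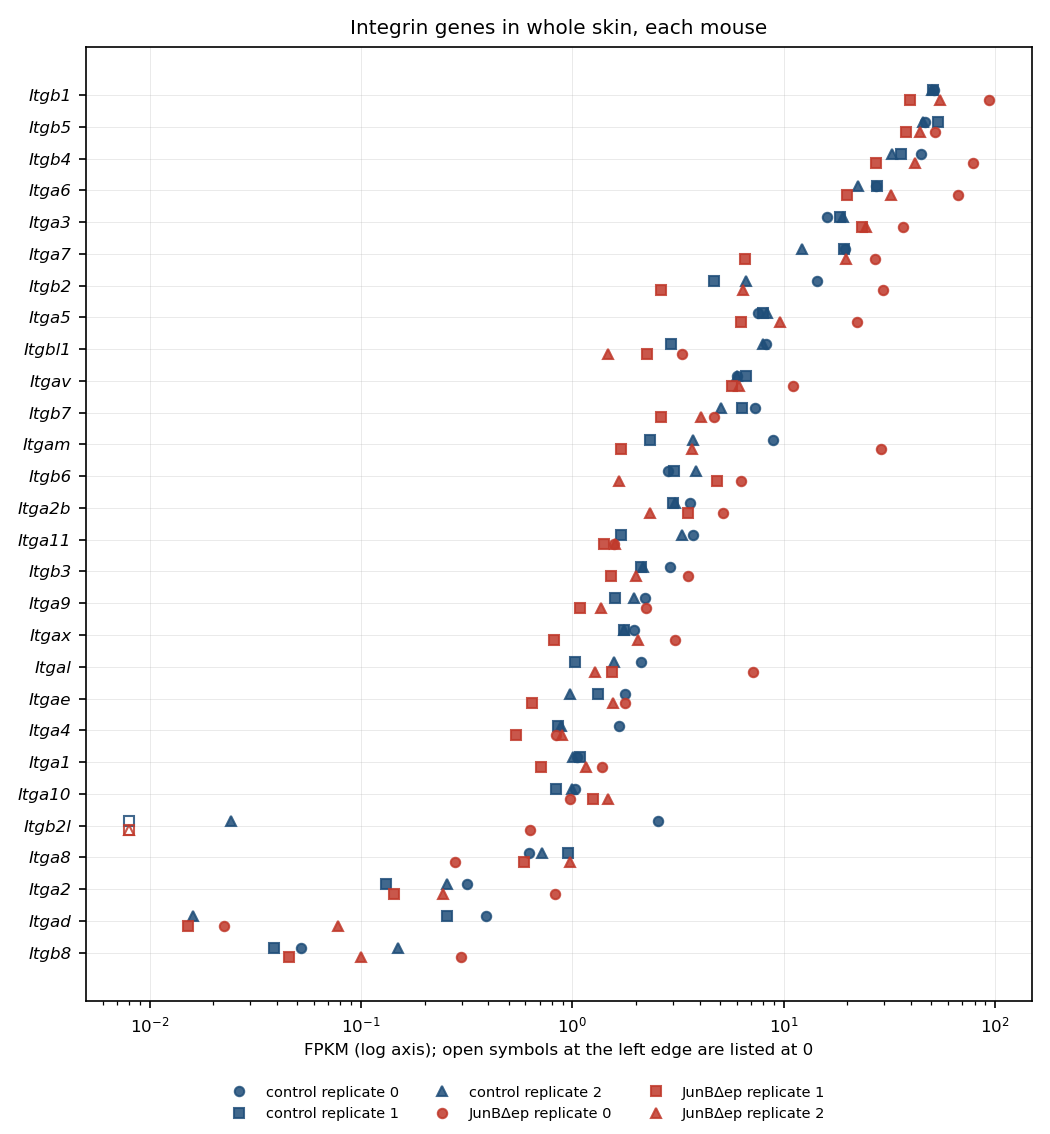
FPKM of the 28 integrin rows in each mouse, on a log axis, ordered by control mean. Blue symbols are controls, red symbols are JunBΔep mice, and circle, square and triangle are replicates 0, 1 and 2. Itgb1, Itgb5 and Itgb4 are at the top, between 27.2 and 93.6 FPKM, and Itgb2l, Itga4, Itga8, Itga2, Itgad and Itgb8 lie below 1 FPKM in most mice.

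Beta subunits gave the highest levels of the family. Itgb1, the common partner (chr8:131209554-131257100), was at 51.6, 51.1 and 50.3 FPKM in controls, the narrowest spread of any member there, and at 93.6, 39.6 and 55.2 FPKM in JunBΔep mice (log2 fold change 0.21 with a standard error of 0.32, limma adjusted p = 0.822, and -0.12 without JunBΔep replicate 0). Controls thus fell inside the range of the JunBΔep mice. Itgb5, a partner of Itgav in vitronectin binding, was at 46.6, 53.8 and 45.5 FPKM and 52.1, 37.9 and 44.3 FPKM. In every library Itgb1, Itgb4 and Itgb5 together held most of the beta FPKM, with Itgb1 at 29.8% to 35.5%. Itgb3, the platelet and osteoclast subunit, Itgb6, which epithelia use to activate latent TGF-beta, and Itgb8 were at 1.53 to 3.54, 1.67 to 6.28 and 0.0389 to 0.296 FPKM over the 6 mice, with overlapping groups.

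Among the RGD receptors, Itga5, the fibronectin receptor (chr15:103174720-103197194), was at 7.58, 7.97 and 8.36 FPKM in control mice against 22.2, 6.29 and 9.58 FPKM in JunBΔep mice (log2 fold change 0.45 with a standard error of 0.44, limma adjusted p = 0.737). The estimate rests on JunBΔep replicate 0, since it was -0.03 without it. Itgav, the vitronectin receptor subunit, likewise had its highest value in JunBΔep replicate 0 and its lowest in replicate 1, at 6.04, 6.65 and 6.03 FPKM and 11.03, 5.69 and 6.17 FPKM. Itga8, found on smooth muscle and fibroblasts, was at 0.278 to 0.971 FPKM and Itga2b, the platelet subunit, at 2.33 to 5.15 FPKM over all mice.

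The collagen receptors were low. Itga11, the collagen receptor of fibroblasts (chr9:62525633-62631789), was at 3.71, 1.71 and 3.29 FPKM in control mice against 1.57, 1.42 and 1.60 FPKM in JunBΔep mice. All JunBΔep mice lay below all controls, control replicate 1 by a narrow margin. The log2 fold change was -0.69 with a standard error of 0.30 (adjusted p = 0.681 from limma). Fibroblast transcripts moved in the same order among controls: the summed level of 7 fibroblast markers was 2326, 733 and 1505 FPKM there and 1536, 623 and 726 FPKM in JunBΔep mice, with 0 of 7 called. Their part in the Itga11 values was not tested. Itga1 and Itga10 stayed between 0.708 and 1.47 FPKM, and Itga2, the keratinocyte and platelet collagen receptor, was at 0.131 to 0.832 FPKM with its highest value in JunBΔep replicate 0. Of the related pair Itga4 and Itga9, Itga9 was at 2.21, 1.59 and 1.97 FPKM and 2.23, 1.09 and 1.36 FPKM (log2 fold change -0.26, adjusted p = 0.754 from limma, with -0.49 without JunBΔep replicate 0 and -0.09 without JunBΔep replicate 1), and Itga4 at 0.541 to 1.66 FPKM.

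Itgbl1 had the largest estimate in size. It was at 8.28, 2.92 and 7.98 FPKM in control mice against 3.31, 2.27 and 1.48 FPKM in JunBΔep mice, where JunBΔep replicate 0 lay above control replicate 1 (chr14:124059193-124374840). The means were 6.40 ± 3.01 FPKM (SD, n = 3) and 2.35 ± 0.918 FPKM (SD, n = 3), a log2 fold change of -1.20 with a standard error of 0.46 (adjusted p = 0.603 from limma, unadjusted p = 0.0390). Control replicate 1, which was low in fibroblast transcripts, was also the low control here.

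Of the leukocyte integrins, Itgb2 and Itgam had the largest standard errors of all members. Itgb2, the common beta subunit of leukocytes (chr10:76992997-77028453), was at 14.4, 4.70 and 6.61 FPKM in control mice against 29.7, 2.63 and 6.44 FPKM in JunBΔep mice, with the extremes of the 6 again in JunBΔep replicates 0 and 1. Itgam, which with Itgb2 forms the complement receptor Mac-1 of neutrophils and macrophages (chr7:135206154-135271674), was at 8.86, 2.33 and 3.73 FPKM and 28.8, 1.70 and 3.69 FPKM. The log2 fold changes of Itgb2 and Itgam were 0.09 (standard error 0.87, adjusted p = 0.977 from limma) and 0.42 (standard error 1.01, adjusted p = 0.892 from limma). Without JunBΔep replicate 0 they were -0.81 and -0.67. The share of all integrin beta FPKM taken by Itgb2 was 8.31%, 2.99% and 4.52% in controls and 11%, 2.26% and 4.14% in JunBΔep mice, a difference of 0.537 percentage points (exact two-sided permutation p = 0.9, smallest possible 0.1), and leaving out JunBΔep replicate 0 turned it to -2.07.

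The leukocyte markers had the same extremes, and their part in these values was not tested. Ptprc, the pan-leukocyte phosphatase CD45, was at 8.21, 5.04 and 4.79 FPKM in control mice against 15.9, 2.13 and 4.64 FPKM in JunBΔep mice, and the sum of 6 leukocyte markers, none of them at 0, was 116 to 205 FPKM in control mice against 357, 62.0 and 130 FPKM in JunBΔep mice. JunBΔep replicate 0 had the highest value of all 6 markers. Per unit of Ptprc, Itgb2 was 1.75, 0.932 and 1.38 in controls and 1.87, 1.23 and 1.39 in JunBΔep mice, ranges that overlap. Neutrophil and monocyte markers summed to 212 to 1163 FPKM in control mice against 25339, 90.6 and 272 FPKM in JunBΔep mice, and S100a8 alone was at 24460 FPKM in JunBΔep replicate 0. Itgam per unit of Itgb2 was 0.617, 0.495 and 0.564 in controls and 0.971, 0.646 and 0.572 in JunBΔep mice.

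Itgal, the LFA-1 subunit of lymphocytes, lies on chr7 as do Itgam, Itgax and Itgad, and was at 2.12, 1.03 and 1.58 FPKM and 7.14, 1.54 and 1.28 FPKM. Itgax, a marker of dendritic cells, was at 1.97, 1.75 and 1.75 FPKM and 3.07, 0.821 and 2.05 FPKM. Itgad was at most 0.389 FPKM, and Itgae, which with Itgb7 holds T cells in epithelium by binding Cdh1, was at 0.646 to 1.78 FPKM over the 6 mice. Itgb7, the beta subunit of gut-homing and epithelial lymphocytes, had another order than Itgb2 and Itgam. It was at 7.30, 6.36 and 5.06 FPKM in control mice against 4.71, 2.64 and 4.08 FPKM in JunBΔep mice (chr15:102046426-102062366). All JunBΔep mice lay below all controls, JunBΔep replicate 0 included, although that library held the most leukocyte transcripts. The log2 fold change was -0.66 with a standard error of 0.27 (adjusted p = 0.665 from limma) and was -0.82 without JunBΔep replicate 0. Itgb7 per unit of Ptprc was 0.889, 1.26 and 1.06 in controls and 0.296, 1.24 and 0.880 in JunBΔep mice, so the groups overlapped on that scale. The 6 T cell and Langerhans cell markers matched in the table did not share an order. Their sum was 139 to 191 FPKM in control mice against 255, 195 and 181 FPKM in JunBΔep mice, with 0 called, 2 positive and 4 negative estimates. Thy1 and Epcam made up most of it and had the positive estimates, 0.21 and 0.87 (-0.15 and 0.79 without JunBΔep replicate 0). Epcam was at 49.4, 62.0 and 69.9 FPKM in control mice against 122, 119 and 90.4 FPKM in JunBΔep mice. Cd3d, Cd3e, Cd3g and Cd207 were at -0.22, -0.61, -0.55 and -0.68, and at -0.29, -0.27, -0.315 and -0.28 without JunBΔep replicate 0. Hence the sum does not describe T cells alone. Cd3e was lowest of the 6 mice in JunBΔep replicate 0, at 1.96 FPKM, and Thy1 was at 120 FPKM there against 51.65 to 81.2 FPKM in controls. The part of these cells in the Itgb7 values was not tested. Itgb2l, a close relative of Itgb2, was listed at 0 in control replicate 1 and in JunBΔep replicates 1 and 2, and was at 2.55 FPKM in control replicate 0 and 0.632 FPKM in JunBΔep replicate 0. Reads with several matches were kept in the alignment, so its split from Itgb2 is uncertain.

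**Figure D3:**
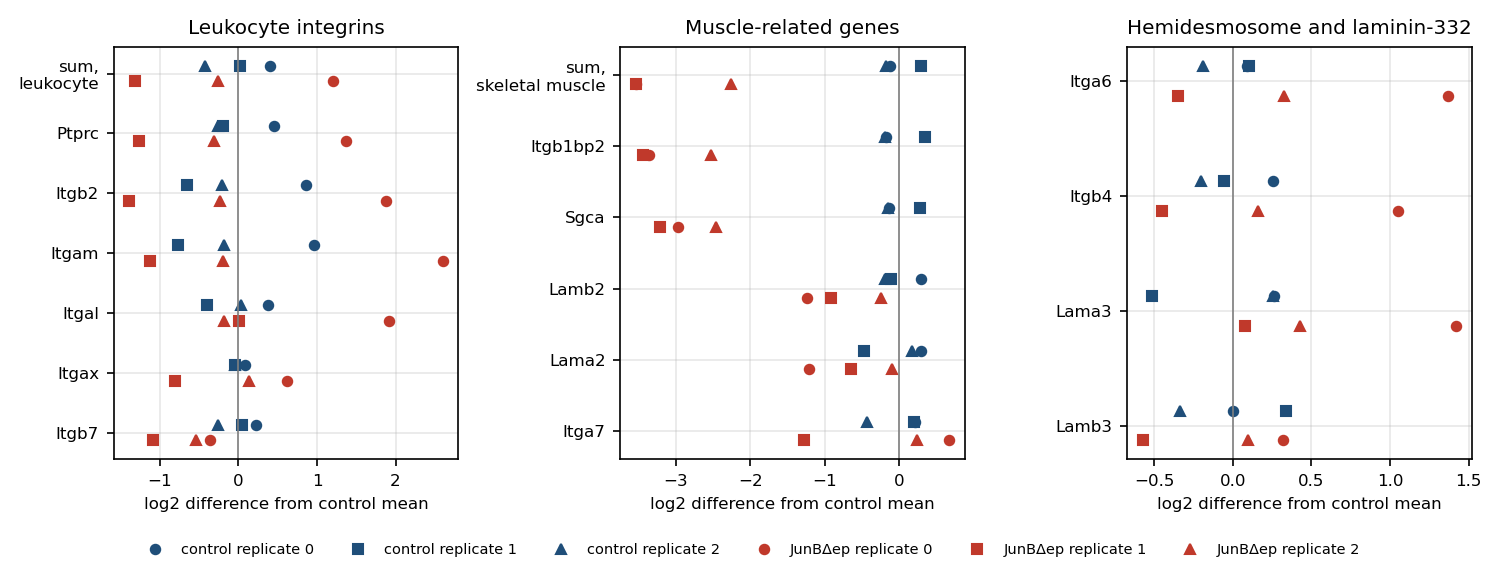
Log2 difference of each mouse from the control mean (horizontal axis) for leukocyte integrins with leukocyte markers, muscle-related genes, and the hemidesmosome and laminin-332 genes Itga6, Itgb4, Lama3 and Lamb3. Single genes are on the log2(FPKM + 0.5) scale and marker sums on log2 of the sum. Itgb2 in JunBΔep replicates 0, 1 and 2 is at 1.88, -1.39 and -0.24, beside 1.20, -1.32 and -0.26 for the leukocyte sum, while the muscle sum is at -3.54, -3.54 and -2.26 and Itga7 at 0.68, -1.28 and 0.24.

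Lama3 and Lamb3, which share a trimer in laminin-332, differed in their order across the mice. Lama3 was at 4.09, 2.17 and 4.07 FPKM in control mice against 9.73, 3.53 and 4.63 FPKM in JunBΔep mice (log2 fold change 0.64 with a standard error of 0.43, limma adjusted p = 0.722), and JunBΔep replicate 1 lay within the controls. The estimate was 0.25 without JunBΔep replicate 0 and 0.38 without control replicate 1. Lamb3 (chr1:195128151-195170072) was at 33.0, 42.0 and 26.0 FPKM and 41.3, 22.0 and 35.4 FPKM, with full overlap (log2 fold change -0.05 with a standard error of 0.30, limma adjusted p = 0.958, and -0.24 without JunBΔep replicate 0).

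The genes that complete the hemidesmosome were not called either, 0 of 7, with a median log2 fold change of -0.16, or -0.29 without JunBΔep replicate 0. Among those 7, Col17a1, the transmembrane collagen of the hemidesmosome, was at 274, 230 and 188 FPKM in control mice against 92.3, 130 and 210 FPKM in JunBΔep mice, and Dst, its intracellular anchor, at 46.1, 47.6 and 38.8 FPKM and 14.9, 29.1 and 48.1 FPKM. Col17a1, Dst, Cd151 and Krt14 had their lowest value in JunBΔep replicate 0, where Krt5 had its highest, while Plec and Col7a1 had neither there.

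**Figure D4:**
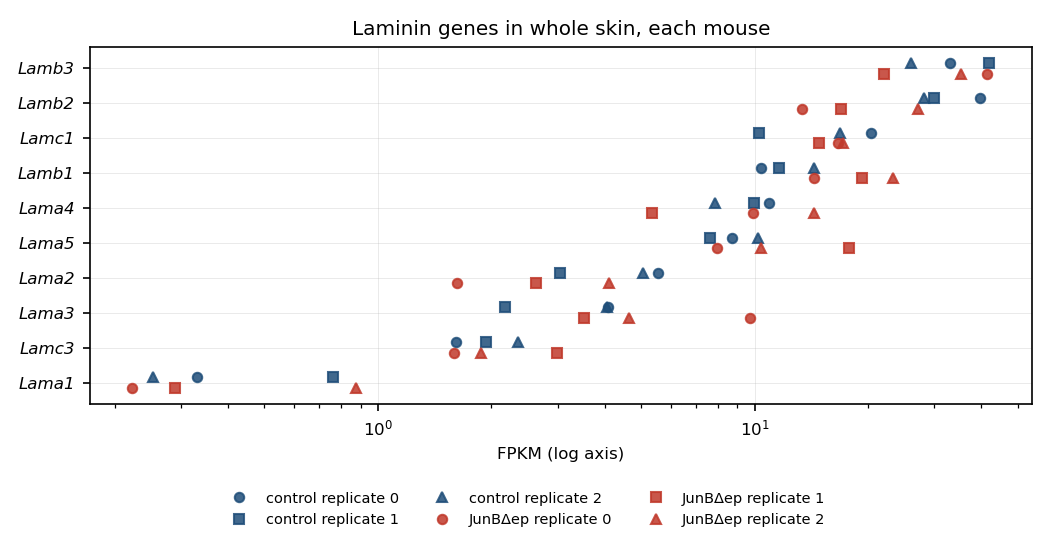
FPKM of 10 laminin genes in each mouse, on a log axis, ordered by control mean, with controls in blue and JunBΔep mice in red. Lamb3 in control replicate 1 (42.0 FPKM) has the highest value shown, the Lamb2 values of the JunBΔep mice (13.4 to 27.2 FPKM) lie left of every control, and Lama5 in JunBΔep replicate 1 (17.8 FPKM) lies apart from the other mice.

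The other beta chains had estimates of opposite sign. Lamb2, the beta chain of basement membranes of vessels, nerve and the neuromuscular junction (chr9:108382193-108392861), was at 39.8, 29.9 and 28.2 FPKM in control mice against 13.4, 17.0 and 27.2 FPKM in JunBΔep mice. The groups did not overlap, although JunBΔep replicate 2 came close to the lowest control. The means were 32.6 ± 6.25 FPKM (SD, n = 3) and 19.2 ± 7.15 FPKM (SD, n = 3), a log2 fold change of -0.80 with a standard error of 0.29 (adjusted p = 0.570 from limma, unadjusted p = 0.0348). Lamb1, the widely expressed beta chain of the epithelial and vascular laminins (chr12:31950099-32014509), was at 10.4, 11.6 and 14.4 FPKM in control mice against 14.4, 19.2 and 23.2 FPKM in JunBΔep mice. Control replicate 2 and JunBΔep replicate 0 met at 14.4 FPKM and the other JunBΔep mice were higher. The means were 12.1 ± 2.07 FPKM (SD, n = 3) and 18.9 ± 4.45 FPKM (SD, n = 3), a log2 fold change of 0.61 with a standard error of 0.23 (adjusted p = 0.614 from limma, unadjusted p = 0.0405).

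The ratio of both genes was chosen after their values were seen, from estimates of opposite sign, so it restates them. An exact two-sided permutation test of it gave p = 0.1, the smallest that 3 mice against 3 can give, which is no independent support. Lamb1 was at 0.261, 0.389 and 0.511 times the level of Lamb2 in controls and at 1.07, 1.13 and 0.855 times in JunBΔep mice. On the log2 scale the means were -1.42 ± 0.488 (SD, n = 3) and 0.02 ± 0.215 (SD, n = 3), a difference of 1.44. A ratio within a library shows unequal change and not which of both genes changed. The skeletal muscle transcripts given above moved with the groups in the same libraries, and their part in the Lamb2 values was not tested.

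Upstream sequence is shown for Itga3, the member with the lowest unadjusted p, and for Lamb1 and Lamb2, whose ratio is given above. The reason is that the deleted factor, JunB, binds DNA as part of AP-1. The pattern searched was TGANTCA, which is wider than the AP-1 site TGACTCA or TGAGTCA because its middle base is free. RefSeq promoter windows on GRCm38.p6 (250 bases before to 50 after a gene start) were matched by symbol for 25 members with 28 windows. Lama1, Lama3, Lama4, Lamc1, Lamc3, Itga6, Itga7, Itgad, Itgae, Itgal, Itgb2, Itgb3 and Itgb4 were among the 14 members with no window used here. TGANTCA, which reads the same on both strands, was in 3 of the 28 windows (10.7%) against 7.81% of 32851 windows of all genes, and the related site TGACGTCA in 0 against 1.79%. TATAAA on either strand was in 0 of 28 against 13.6%, and the GC box GGGCGG on either strand in 13 of 28 (46.4%) against 35.7%. The TGANTCA matches lay in windows of Itgax, Itga9 and the inner start of Itga3, and none was in a window of Lamb1, Lamb2, Itga11, Itgb7 or Itgbl1. A match describes letters only. The 250 bases before each start follow, 5′ to 3′ on the strand of the gene, with GC boxes in capitals.
Itga3, outer start, chr11:95076715-95076964, minus strand: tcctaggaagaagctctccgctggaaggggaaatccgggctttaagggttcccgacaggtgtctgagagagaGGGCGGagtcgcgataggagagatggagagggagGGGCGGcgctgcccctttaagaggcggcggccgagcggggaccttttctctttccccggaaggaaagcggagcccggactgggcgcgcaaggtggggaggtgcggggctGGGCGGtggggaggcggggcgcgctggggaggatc
Itga3, inner start, chr11:95069199-95069448, minus strand: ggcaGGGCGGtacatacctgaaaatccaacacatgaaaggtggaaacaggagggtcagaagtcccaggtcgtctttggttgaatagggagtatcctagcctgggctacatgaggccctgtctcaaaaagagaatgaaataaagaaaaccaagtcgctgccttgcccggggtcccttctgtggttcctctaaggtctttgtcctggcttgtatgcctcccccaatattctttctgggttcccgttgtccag
Lamb1, chr12:31265043-31265292, plus strand: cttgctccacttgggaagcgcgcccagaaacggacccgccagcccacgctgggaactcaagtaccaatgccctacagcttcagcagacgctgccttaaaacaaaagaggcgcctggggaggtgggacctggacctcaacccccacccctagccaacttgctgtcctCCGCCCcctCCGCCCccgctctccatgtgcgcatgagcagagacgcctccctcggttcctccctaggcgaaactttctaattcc
Lamb2, chr9:108479612-108479861, plus strand: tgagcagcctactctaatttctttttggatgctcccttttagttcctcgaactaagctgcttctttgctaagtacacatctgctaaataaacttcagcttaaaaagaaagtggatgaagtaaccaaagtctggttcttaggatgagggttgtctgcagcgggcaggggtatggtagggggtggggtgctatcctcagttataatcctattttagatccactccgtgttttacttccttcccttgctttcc
The outer Itga3 start is 67.6% G and C with 3 GC boxes, the inner start 50.8% with 1 box, Lamb1 62% with 2 boxes and Lamb2 43.6% with 0 boxes, which is the lowest share of these windows. The TGANTCA matches with the bases around them follow, the match in capitals.
Itgax, chr7:128129483-128129511, plus strand, first base of the match 56 bases before the start: cccacctcctcTGAGTCAcgctgacaact
Itga9, chr9:118711719-118711741, plus strand, first base of the match at base 39 of the transcript: gcagactggtcTGACTCAaggag
Itga3, inner start, chr11:95069169-95069197, minus strand, first base of the match at base 13 of the transcript: gggctggtgccTGAATCActggcttgctc
The Itga3 match has A at the free base and is neither TGACTCA nor TGAGTCA. Of these 3 genes, Itga3 alone had groups that did not overlap. Itgax and Itga9 had log2 fold changes of -0.02 and -0.26, which were -0.34 and -0.49 without JunBΔep replicate 0.

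**Figure D5:**
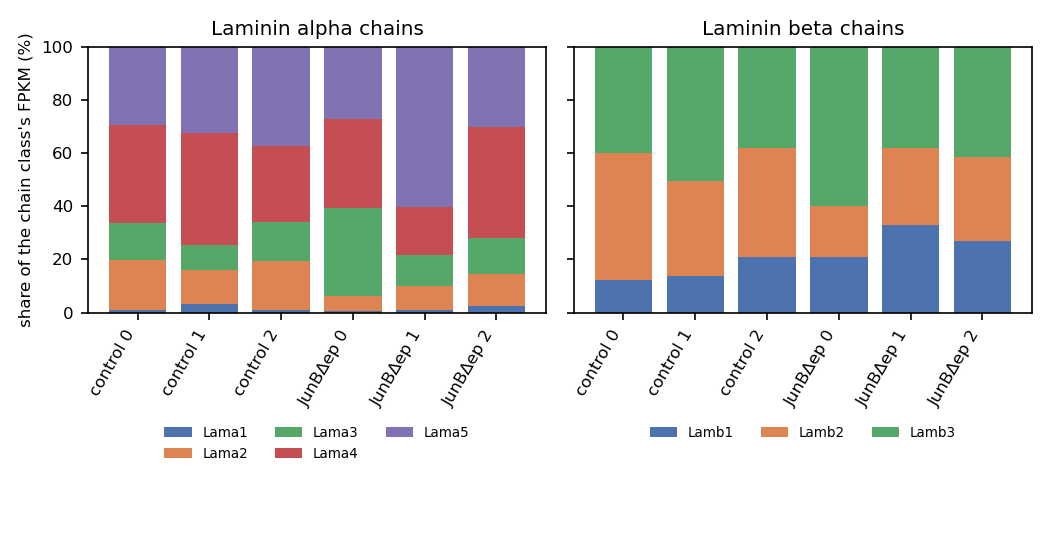
Share of the summed FPKM of the laminin alpha and beta chains taken by each gene, in percent (vertical axis), 1 bar per mouse. In the beta class, Lamb2 takes 35.8% to 47.8% in controls and 19.4% to 31.7% in JunBΔep mice. In the alpha class Lama5 takes 60.2% in JunBΔep replicate 1.

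Lama5, the alpha chain of laminin-511 under epidermis, hair follicle and vessels (chr2:179911078-179960564), was at 8.69, 7.63 and 10.2 FPKM in control mice against 7.96, 17.8 and 10.4 FPKM in JunBΔep mice (log2 fold change 0.36 with a standard error of 0.32, limma adjusted p = 0.725), with JunBΔep replicate 1 above all others. The estimate rests on that mouse, since it was 0.05 without it, and it was 0.61 without JunBΔep replicate 0. Lama2, the merosin chain of muscle and nerve (chr10:26701094-27336748), was at 5.55, 3.04 and 5.05 FPKM and 1.63, 2.63 and 4.12 FPKM (log2 fold change -0.65 with a standard error of 0.37, limma adjusted p = 0.722, and -0.37 without JunBΔep replicate 0), with JunBΔep replicate 2 inside the controls. Lama4, the vessel and fat chain, was at 10.9, 9.96 and 7.87 FPKM and 9.93, 5.35 and 14.4 FPKM. The 7 endothelial markers had 0 called and 7 negative estimates (median -0.19), and their sum was lowest and highest in the same mice as Lama4, at 83.0, 83.8 and 60.5 FPKM in control mice against 62.6, 33.5 and 125 FPKM in JunBΔep mice, and their part in the Lama4 values was not tested. Lama1 was at 0.223 to 0.876 FPKM. Lama2 and Lama4 together took 55.6%, 55.2% and 47.0% of the alpha chain FPKM in control mice against 39.2%, 26.9% and 53.7% in JunBΔep mice, a difference of -12.6 percentage points (exact two-sided permutation p = 0.2, smallest possible 0.1). It was -6.14 without JunBΔep replicate 1 and -19.5 without JunBΔep replicate 2. Of the gamma chains, Lamc1, the partner of most laminins outside laminin-332, was at 20.4, 10.3 and 16.8 FPKM and 16.6, 14.9 and 17.1 FPKM, and Lamc3 was at 1.59 to 2.99 FPKM.

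The wider pathway was examined by lists written from textbook roles. Of 15 other basement membrane genes 0 were called and 10 had negative estimates (median -0.20, or -0.05 without JunBΔep replicate 0). Those with the largest estimates were Col4a5, Col4a6 and Col4a4, collagen IV chains found in skin or kidney basement membranes, at 0.619, 0.578 and 0.0344 FPKM in JunBΔep replicate 0 against 1.86 to 3.71, 3.03 to 4.47 and 0.207 to 0.710 FPKM in controls. In JunBΔep replicates 1 and 2, Col4a5 and Col4a6 lay at 2.58 to 4.94 FPKM and Col4a4 at 0.225 and 0.162 FPKM. The log2 fold changes of Col4a5, Col4a6 and Col4a4 were -0.59, -0.57 and -0.54, and without JunBΔep replicate 0 they were -0.07, 0.12 and -0.42. Col4a3, named after its values were seen, was the gene of this list whose groups did not overlap, at 0.540, 0.283 and 0.341 FPKM in control mice and 0.0597, 0.194 and 0.189 FPKM in JunBΔep mice. Of 21 activators and adaptors of integrins, the talins, kindlins and focal adhesion proteins, 0 were called and 14 had negative estimates (median -0.12). Parvb, the parvin that skeletal muscle also expresses, was at 11.5, 8.12 and 9.70 FPKM in control mice against 3.84, 2.06 and 5.32 FPKM in JunBΔep mice (log2 fold change -1.34 with a standard error of 0.35, limma adjusted p = 0.250).

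Of 18 other integrin ligands 0 were called and the median was 0.20, or -0.14 without JunBΔep replicate 0. Tnc, tenascin C, was at 1.01, 1.26 and 5.47 FPKM in control mice against 119, 11.4 and 2.56 FPKM in JunBΔep mice (log2 fold change 2.70, adjusted p = 0.720 from limma, and 1.27 without JunBΔep replicate 0). Spp1, osteopontin, was at 7.78, 4.51 and 2.28 FPKM and 134, 1.89 and 3.53 FPKM (log2 fold change 1.16, and -0.65 without JunBΔep replicate 0). Vtn, vitronectin, a plasma protein made in liver, was at 78.8 FPKM in control replicate 0 and at 2.16 to 8.60 FPKM in the other 5 mice. Each of these estimates thus rests on 1 or 2 libraries.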

How the data were processed

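Read quality was assessed by the authors with FastQC. They aligned to mm9 with TopHat 2.0.10, Bowtie 1.0.0 and SAMtools 0.1.19 on iGenomes transcripts, and deposited FPKM values per gene and mouse, 3 control and 3 JunBΔep. Cufflinks is named in the submitters' processing notes without a role, and no source used here says whether libraries were scaled further. Their own DESeq2 test used read counts, which were not used here.

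The 17021 genes averaging 0.1 FPKM or more were compared on log2(FPKM + 0.5) with limma 3.58.1 in R 4.3.3, two-sided, with an intensity trend, over all 6 mice, and adjusted by Benjamini-Hochberg. This scale understates the change of low genes. Shares and ratios were compared by exact permutation tests. The labels describe separate littermate mice, without saying which share a litter. Python 3.11.15 with pandas 2.3.3 made the tables. The procedure was tested on simulated data. Members and lists were chosen with earlier results of these data known. Values in every mouse were given for members with an unadjusted p below 0.05 or without overlap, the highest member of each role, and Itga6, Itgb4, Lama3, Lamb3, Itga7, Lama2, Itgam and Itgb2. Values of further members and of Itgb1bp2 were chosen after they were seen. Results for some genes are not reported here. Positions of genes follow GENCODE vM1 (mm9).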

Additional observations from a re-analysis of the deposited data

How the results depend on the processing

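The count of members called was 0 in the analysis as reported and under all 11 alternatives that keep the 6 mice (pseudocounts, filters, rescalings, variance models and blocks) and all 6 that leave out a mouse, and the lowest adjusted p of any member over these was 0.13. The count over all genes, 235, was 0 with the replicate block and 0 with a block on the 2 number series of the sample titles, and ran from 0 to 254 when single mice were left out (0 without any of the 3 controls or without JunBΔep replicate 1, 135 without JunBΔep replicate 0). Same-numbered control and JunBΔep mice had correlations of their deviations of 0.12, -0.228 and -0.426. With 3 mice a group these values cannot decide whether the numbers pair the mice. The block called no member, but there was no call of a member to lose. Of 19 members described in full, 11 kept their direction in every setting, among them Itga3, Lamb1, Lamb2, Itga11, Itgb7 and Itgbl1. With the title block Itga7 was at 0.19 and Lamb3 at 0.13, against -0.12 and -0.05. Leaving out single mice gave ranges of -0.0328 to 0.84 for Itga5, -0.0125 to 0.85 for Itga6, -0.52 to 0.46 for Itga7, -0.67 to 1.20 for Itgam, -0.12 to 0.49 for Itgb1, -0.81 to 0.82 for Itgb2, -0.14 to 0.61 for Itgb4 and -0.24 to 0.21 for Lamb3. The difference in the Itgb2 share ran from -2.07 to 2.31 percentage points and that of the log2 ratio of Itgb4 to Itgb1 from -0.0439 to 0.17. The cause of these reversals was not tested. The alternatives for the ratio of Lamb1 to Lamb2 and the counts without JunBΔep replicate 0 were chosen after seeing the data, and that ratio's difference ran from 1.18 to 1.67 without single mice. Groups of 3 mice and an unknown number of reads limit what these values can show.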
